A study of Mus musculus with 12 samples.

Results

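Tumours labelled TREX1 KO were compared with control tumours in mice that received checkpoint antibodies, across all genes that could be tested. The members are the 6 libraries of this comparison, of 12 in the series, and the 13886 genes, of 23667 symbols in the deposited table, that reached 1 TPM in at least 3 of the 12 libraries. All tumours were grown from 4T1, a mouse mammary carcinoma line, and sampled as mammary tumours. The CTRL-ICB group (3 libraries) held control 4T1 cells and the KO-ICB group (3 libraries) held 4T1 cells depleted of TREX1 by CRISPR-Cas9. Both received ICB, which was 200 ug of an antibody to PD1 together with 100 ug of an antibody to CTLA4, 3 times weekly for 1 week. The CTRL-IgG and KO-IgG groups (3 libraries each) carried the same cells and received matched isotype antibodies. The RNA in each tumour came from the 4T1 cells and from host cells, which keep an intact Trex1. Whether the depleted cells were a single clone or a pool, and the strain and age of the mice, are not stated in the labels.

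TREX1 is an enzyme that digests DNA from its 3' ends outside the nucleus. DNA left in the cytosol can be sensed by cGAS, which makes a cyclic dinucleotide that activates STING and then the kinase TBK1 and the factor IRF3, and type I interferon is made. Interferon acts through its receptor and transcription factors to induce a large set of interferon-stimulated genes. PD1 and CTLA4 restrain T cells, and antibodies against them release that restraint. The design asks how the depletion of TREX1 changes gene expression of 4T1 tumours while these antibodies are given.

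Values are TPM, an abundance per transcript length whose sum is the same in each library. Read numbers cannot be recovered from TPM, so the depth is unknown and no counting interval is printed. Differences are on the log2(TPM + 1) scale, KO-ICB minus CTRL-ICB, which understates the change of low genes. KO-ICB replicates 1 and 2 were near-identical: the robust SD of their log2 ratio over genes above 300 TPM was 0.0382, against 0.219 to 0.239 between either of them and replicate 3, and 0.320 to 0.401 within CTRL-ICB. They were therefore counted as 1 sample by their mean, as were KO-IgG replicates 2 and 3, which left 10 samples in the linear model fitted to all 4 groups in limma. Results over the 12 libraries as deposited are given beside it. CTRL-ICB replicate 3 held skin transcripts: the 19 genes of the keratinocyte list summed to 13650 TPM there and to between 385 and 956 TPM in the other ICB libraries. Epcam, the epithelial adhesion molecule that marks 4T1 cells, was present in all 6 libraries, at 602, 701 and 652 TPM in CTRL-ICB replicates 1 to 3 and at 1239, 1232 and 1195 TPM in KO-ICB. In KO-IgG replicate 1 Epcam stood at 0.661 TPM. That library enters the ICB comparison only through the shared estimate of spread. In the comparison under IgG and in the interaction it is part of the KO-IgG group.

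The targeted gene itself, Trex1 (minus strand of chromosome 9, bases 109057933 to 109059734 of GRCm38), had no lower transcript level in KO-ICB. Its controls measured 45.7, 36.2 and 44.1 TPM in replicates 1 to 3, and its KO-ICB libraries 56.2, 63.5 and 72.2 TPM. The groups did not overlap, with KO-ICB on the higher side. The difference was 0.64 ± 0.22 (SE) on the log2 scale, with p = 0.1 in an exact two-sided permutation test, the smallest that 2 samples against 3 allow, and a limma adjusted p of 0.53. A loss of Trex1 is thus not visible in the RNA, and all directions given here are those of tumours carrying the label TREX1 KO.

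Few genes passed a test in tumours under checkpoint antibodies. With the near-identical pair counted once, 1 gene of 13886 passed an adjusted p of 0.05 in limma, which is 0.0072%, and 1108 genes (7.98%) had an unadjusted p under 0.05. With all 12 libraries counted as separate tumours, 40 genes passed (0.288%), 28 of them higher in KO-ICB (0.202%) and 12 lower (0.0864%). The gene called in both was Tnnc2. When the 5 ICB samples were fitted alone, 74 genes passed (0.533%), 57 higher and 17 lower, and 12 of these were among the 40. Without CTRL-ICB replicate 3, the library with skin transcripts, 17 genes passed over the libraries that remained, 14 of them among the 40. The count was 4 without any single KO-ICB library, 16 without CTRL-ICB replicate 1 and 527 without KO-IgG replicate 1. The count of 1 over 10 samples became 15 without KO-IgG replicate 1 and 0 without CTRL-IgG replicate 2, CTRL-ICB replicate 1 or 2, KO-ICB replicate 3 or the KO-ICB pair. All 40 genes kept their sign under every alternative. None of them overlapped between the ICB groups, so leaving out a library could not reverse a sign. Where a gene is said below to have risen or fallen, it passed over the 12 libraries, and for genes other than Tnnc2 the adjusted p with the pair counted once lay above 0.05.

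**Figure D1:**
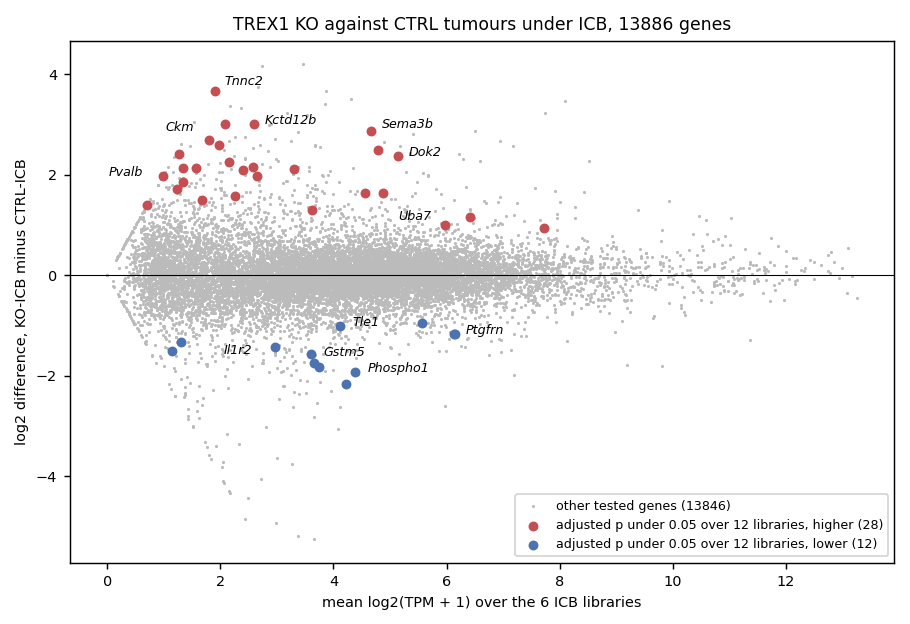
Each point is 1 of 13886 genes, with its mean log2(TPM + 1) over the 6 ICB libraries on the x axis and its log2 difference, KO-ICB minus CTRL-ICB, over the 12 libraries on the y axis. Red points are the 28 genes called higher and blue points the 12 called lower at an adjusted p of 0.05.

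The gene with the smallest p was a muscle gene. Tnnc2 encodes the calcium-binding troponin C of fast skeletal muscle (chromosome 2, 164777161 to 164779967). It was listed at 0, 0 and 0.169 TPM in CTRL-ICB replicates 1 to 3 and at 12.7, 13.5 and 11.2 TPM in KO-ICB. All KO-ICB libraries were high and all controls at or near 0. The difference was 3.64 ± 0.39 (SE) with an adjusted p of 0.0417 over 10 samples, and 3.67 ± 0.31 with an adjusted p of 0.00105 over 12 libraries. Without CTRL-ICB replicate 3 the adjusted p of Tnnc2 was 0.0922 over the samples that remained.

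Ckm, the muscle creatine kinase, rose from 0.522, 0.267 and 0.330 TPM in CTRL-ICB to 6.75, 4.95 and 13.8 TPM in KO-ICB (limma adjusted p = 0.00919 over 12 libraries, 0.0829 over 10 samples). Pvalb, the calcium buffer parvalbumin of fast muscle fibres, was listed at 0 in all 3 CTRL-ICB libraries and at 2.21, 3.22 and 3.41 TPM in KO-ICB (limma adjusted p = 0.00771 over 12 libraries). Neither gene overlapped between the groups, which the rule for naming them required. Further muscle genes among the 40, named after their values were seen, were Des, Mylpf, Myl1, Tcap, Csrp3 and Atp2a1. Myl1, a myosin light chain, stood at 0.594, 0 and 1.06 TPM in CTRL-ICB and at 12.3, 9.05 and 11.8 TPM in KO-ICB. Des, the intermediate filament desmin, stood at 1.64, 1.84 and 2.001 TPM in CTRL-ICB and at 14.3, 13.03 and 8.45 TPM in KO-ICB.

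Of 14 tested skeletal muscle genes on a list drawn up for this tissue, 12 had all KO-ICB libraries above all CTRL-ICB libraries, where 15.2% of all tested genes did so. The 6 members called over the 12 libraries, where 0.288% of all tested genes were called, were Tnnc2, Ckm, Pvalb, Mylpf, Myl1 and Atp2a1. Ckm and Pvalb reached 1 TPM in no library outside KO-ICB, so they passed the filter only through the group where they were high. Outside KO-ICB, Tnnc2 and Atp2a1 reached 1 TPM only in CTRL-IgG replicate 1. The share without overlap and the median of this list are thus in part set by the filter. The median difference of the list was 1.80, against -0.03 for all genes. The summed level of all 18 listed genes, 4 of them too low to be tested, ran from 43.8 to 98.6 TPM in CTRL-ICB and from 162 to 188 TPM in KO-ICB. Acta1, the actin of skeletal muscle, was listed at 0.0994, 0 and 2.54 TPM in CTRL-ICB and at 29.5, 28.8 and 24.2 TPM in KO-ICB (limma adjusted p = 0.0596 over 12 libraries). Which cells carried these transcripts was not tested. In tumours under IgG the median of the same list was -0.12 and 5 of 14 members were positive.

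Dok2 and Kctd12b, with Tnnc2, Ckm and Pvalb, had the 5 smallest p-values among higher genes without overlap in the fit over 10 samples. Dok2, an adaptor that dampens receptor signalling in haematopoietic cells (chromosome 14, 70766036 to 70778495), stood at 16.8, 16.5 and 11.04 TPM in CTRL-ICB and at 83.4, 81.1 and 73.9 TPM in KO-ICB. It rose by 2.37 ± 0.26 (SE) over the 12 libraries (limma adjusted p = 0.00624, and 0.0829 over 10 samples). Kctd12b (chromosome X, 153685154 to 153696391) stood at 1.27, 1.27 and 0.848 TPM in CTRL-ICB and at 17.95, 16.8 and 13.6 TPM in KO-ICB. It rose by 3.00 ± 0.31 over the 12 libraries (limma adjusted p = 0.00511, and 0.0829 over 10 samples). For both genes the lowest KO-ICB library lay far above the highest control. Sema3b, a secreted semaphorin, stood at 9.97, 6.55 and 9.02 TPM in CTRL-ICB and at 71.98, 61.9 and 69.5 TPM in KO-ICB (limma adjusted p = 0.00919 over 12 libraries).

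Among lower genes without overlap, the 5 with the smallest p in the fit over 10 samples were Gstm5, Il1r2, Ptgfrn, Phospho1 and Tle1. All 5 were called over the 12 libraries. Gstm5, a glutathione S-transferase of the mu class (chromosome 3, 107895821 to 107898686), stood at 21.1, 20.3 and 18.5 TPM in CTRL-ICB and at 6.53, 7.16 and 4.67 TPM in KO-ICB (limma adjusted p = 0.0193 over 12 libraries, 0.198 over 10 samples). Its relatives in the mu class are close in sequence, so reads may be split between them. Il1r2, the decoy receptor for interleukin 1 carried by neutrophils, stood at 9.19, 12.6 and 13.9 TPM in CTRL-ICB and at 4.01, 4.47 and 2.90 TPM in KO-ICB (limma adjusted p = 0.0412 over 12 libraries). Ptgfrn, a membrane protein that binds tetraspanins and the prostaglandin F receptor, stood at 85.9, 112 and 120 TPM in CTRL-ICB and at 51.1, 48.8 and 39.7 TPM in KO-ICB (limma adjusted p = 0.0412 over 12 libraries). In each of these genes the KO-ICB libraries lay below every control, which the rule for naming them required.

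Phospho1, a phosphatase of mineralizing tissue, stood at 52.0, 42.5 and 28.0 TPM in CTRL-ICB and at 8.59, 9.05 and 11.9 TPM in KO-ICB (limma adjusted p = 0.0380 over 12 libraries). Tle1, a transcriptional corepressor of the Groucho family, stood at 24.7, 22.7 and 23.6 TPM in CTRL-ICB and at 10.8, 11.5 and 11.5 TPM in KO-ICB. It fell by 1.01 on the log2 scale (limma adjusted p = 0.0207 over 12 libraries, 0.261 over 10 samples), with little spread in either group. Among the other genes called lower were Ntn1, Maged2, Bcam, Osbp2, Acsl6 and Ddah2. These 6, like the higher genes Sema3b, Cpa3 and Ifng, were named after their values were seen.

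**Figure D2:**
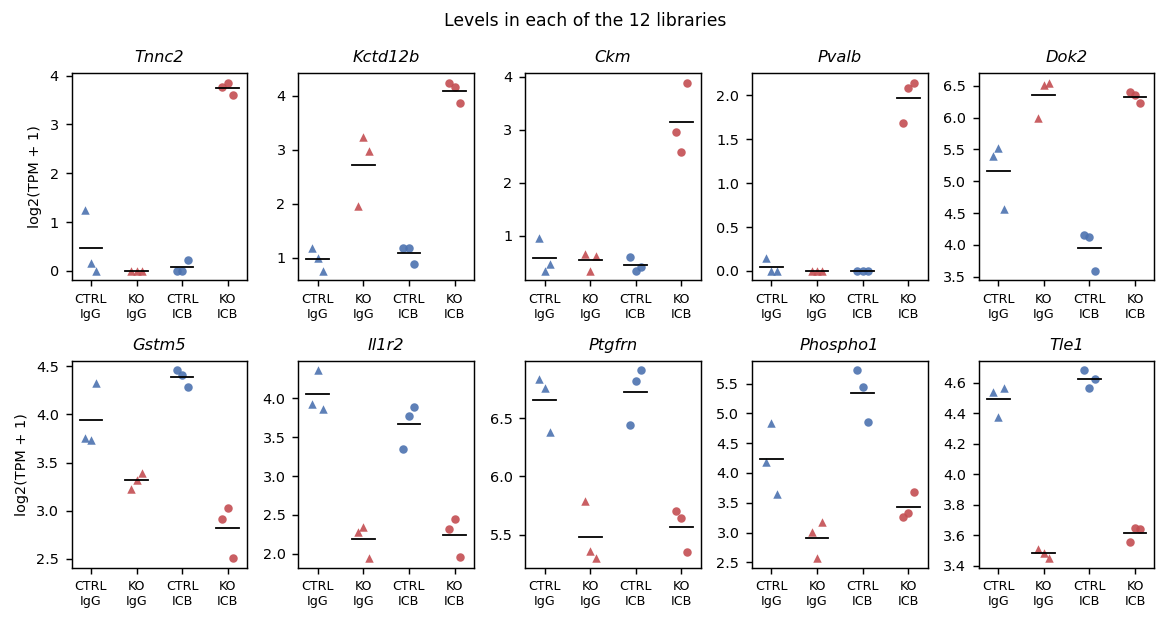
Each panel shows log2(TPM + 1) of 1 gene in each of the 12 libraries, with CTRL in blue, KO in red, IgG as triangles, ICB as circles and the mean of the 3 libraries as a black line. A lack of overlap under ICB was part of the rule that chose the 10 genes. For Tnnc2, Kctd12b, Ckm and Pvalb the KO-ICB libraries stand above all other libraries.

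Type I interferon-stimulated genes stood higher in KO-ICB tumours, although 1 of them passed the test over the 12 libraries. All 43 members of the list were tested, all 43 differences were positive, and 37 had every KO-ICB library above every CTRL-ICB library, where 15.2% of all genes did. The median difference was 1.10 over 10 samples and 1.06 without CTRL-ICB replicate 3, against -0.03 for all genes. The mean log2(TPM + 1) of the list was 5.30, 5.41 and 5.49 in CTRL-ICB replicates 1 to 3 and 6.51, 6.49 and 6.45 in KO-ICB. The called gene was Uba7, the enzyme that activates ISG15 for conjugation, which stood at 36.1, 50.1 and 44.9 TPM in CTRL-ICB and at 96.7, 78.3 and 89.4 TPM in KO-ICB (limma adjusted p = 0.0380 over 12 libraries, 0.263 over 10 samples).

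When the ICB samples were fitted alone, 11 of the 43 passed, all higher, where 0.533% of all tested genes passed in either direction. Isg15, the ubiquitin-like modifier itself (chromosome 4, 156199424 to 156200818), stood at 248, 158 and 186 TPM in CTRL-ICB and at 548, 553 and 755 TPM in KO-ICB (limma adjusted p = 0.0481 in the ICB samples alone, 0.195 over 12 libraries). Irf7, the factor that amplifies interferon production, stood at 113, 102 and 94.4 TPM in CTRL-ICB and at 332, 319 and 392 TPM in KO-ICB (limma adjusted p = 0.0250 in the ICB samples alone). Oas1g, a 2'-5' oligoadenylate synthetase that activates RNase L, stood at 34.0, 27.1 and 28.9 TPM in CTRL-ICB and at 96.9, 100.0 and 107 TPM in KO-ICB. Ifit3, which binds foreign RNA with its relatives, stood at 24.3, 22.1 and 25.04 TPM in CTRL-ICB and at 71.5, 73.3 and 82.9 TPM in KO-ICB. Both the Oas1 genes and the Ifit genes are families of close copies whose reads may be split between members. Fits that include the IgG libraries take in a wider spread: the mean level of the list stood at 5.34 in KO-IgG replicate 1, within the CTRL-IgG range of 5.08 to 5.73, and at 6.53 and 6.49 in KO-IgG replicates 2 and 3.

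**Figure D3:**
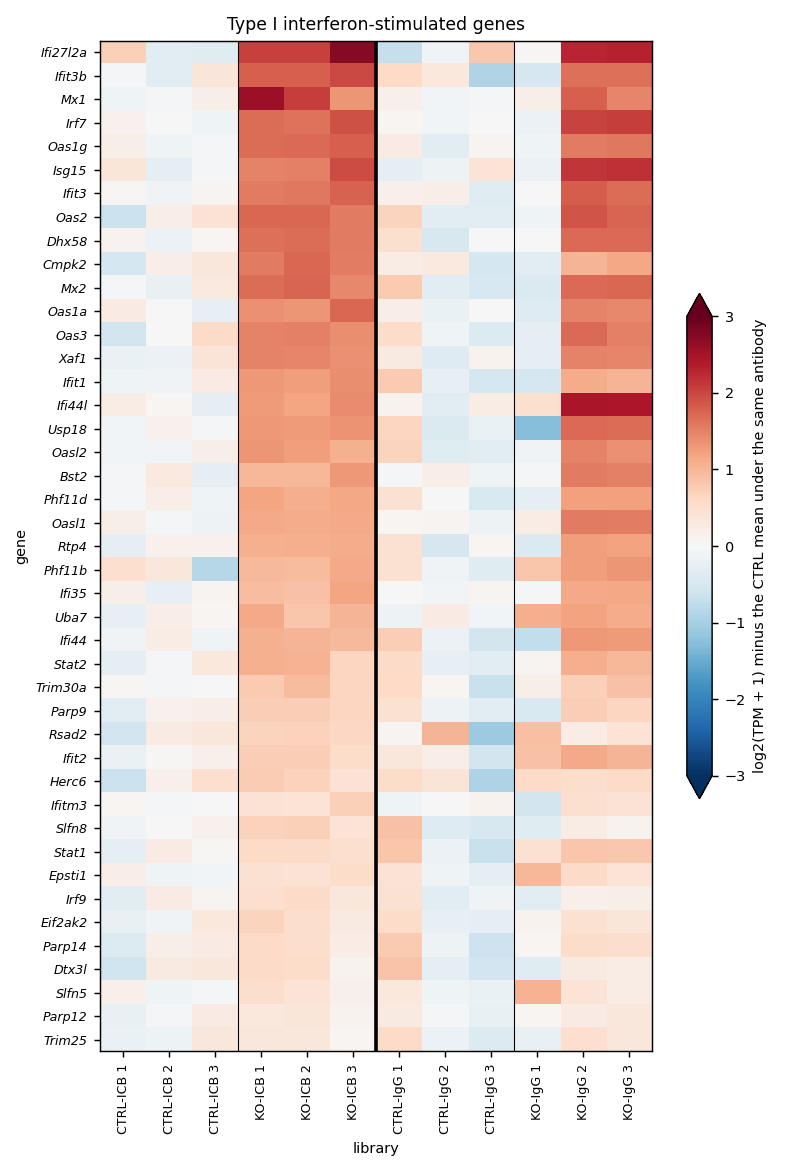
Each row is 1 of the 43 type I interferon-stimulated genes and each column 1 library, and colour gives log2(TPM + 1) minus the mean of the CTRL libraries under the same antibody, cut at 3. All 3 KO-ICB columns are red for nearly all genes, and of the KO-IgG columns replicate 1 is paler than replicates 2 and 3.

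Interferon acts on such genes through the interferon-stimulated response element, whose core was searched as GAAANNGAA on both strands in the RefSeq window of 250 bases before to 50 bases after each gene's start. A RefSeq window was listed for 33 of the 43 genes, and 19 of these (57.6%) held the core, where 9.0% of the windowed genes among all those tested and 8.6% of all windows in the table did. The GAS element was searched as TTCNNNGAA, which reads the same on both strands, and was held by 18.2% of the list and 8.4% of all tested genes with a window. The 160 bases before the start are shown for 3 genes that were high in KO-ICB and hold the core, 5' to 3' on the strand of the gene, with each match to the core in capitals (RefSeq, GRCm38.p6).
Isg15 (chr4:156200819-156200978, minus strand): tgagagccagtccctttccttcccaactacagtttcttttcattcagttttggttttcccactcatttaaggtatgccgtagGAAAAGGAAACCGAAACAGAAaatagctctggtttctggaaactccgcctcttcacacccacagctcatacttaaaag
Oas1g (chr5:120887614-120887773, minus strand): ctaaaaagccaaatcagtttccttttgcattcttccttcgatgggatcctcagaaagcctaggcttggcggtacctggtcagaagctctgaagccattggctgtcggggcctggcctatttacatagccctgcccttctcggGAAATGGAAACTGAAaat
Ifit3 (chr19:34583369-34583528, plus strand): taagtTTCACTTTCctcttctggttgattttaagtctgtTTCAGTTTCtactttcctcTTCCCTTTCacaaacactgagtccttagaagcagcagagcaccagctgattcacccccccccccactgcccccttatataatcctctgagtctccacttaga
The core occurred 3 times in Isg15 and 2 times in Oas1g, each as 1 run of overlapping matches that began 78 and 18 bases before the start, and 3 times in Ifit3, apart from each other. No match lay in the window of Uba7. Of the 19 genes with a window among those called higher over the 12 libraries, 5.3% held the core.

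Sensors of nucleic acid stood on the same side, with smaller differences. Of 24 tested members of the cytosolic sensing list 23 were positive, 13 had non-overlapping libraries with KO-ICB above and none below, where 15.2% of all tested genes lay above and 14.3% below, and the median was 0.51. None passed the test. Zbp1, a sensor of Z-form nucleic acid that can start necroptosis, stood at 121, 140 and 174 TPM in CTRL-ICB and at 244, 241 and 295 TPM in KO-ICB (limma adjusted p = 0.0979 over 12 libraries). Sting1, the adaptor activated by cGAMP, stood at 69.9, 72.04 and 52.2 TPM in CTRL-ICB and at 86.2, 96.9 and 95.8 TPM in KO-ICB. Cgas, the sensor upstream of it, overlapped between the groups, at 3.52 to 5.15 TPM in CTRL-ICB and 4.18 to 5.45 TPM in KO-ICB. Enzymes that clear nucleic acids were mixed: 11 of 17 were positive and 4 did not overlap, 3 of them higher, a share close to that of all genes, with a median of 0.19 that ran from 0.11 to 0.31 with 1 ICB sample left out.

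Genes induced mainly by interferon gamma differed less than the type I list. Of 27 tested members 20 were positive and 11 had all KO-ICB libraries above all controls, where 15.2% of all tested genes did and 14.3% lay below, with a median of 0.23 that was 0.48 without CTRL-ICB replicate 2. Socs1, a feedback inhibitor of cytokine receptors, stood at 14.7, 20.2 and 11.3 TPM in CTRL-ICB and at 36.9, 36.4 and 42.9 TPM in KO-ICB (limma adjusted p = 0.0954 over 12 libraries). Cd274, which encodes the PD1 ligand PD-L1, overlapped between the groups, with 16.4 to 33.9 TPM in CTRL-ICB and 20.5 to 29.8 TPM in KO-ICB. Of 21 genes of MHC class I presentation 12 stood higher without overlap and 3 lower, with a median of 0.28. Nlrc5, the transactivator of class I genes, stood at 31.3, 53.0 and 54.4 TPM in CTRL-ICB and at 105, 93.0 and 61.8 TPM in KO-ICB. Of 13 class II genes 12 were positive, 5 higher without overlap and 1 lower, with a median of 0.47. That median was 0.72 without CTRL-ICB replicate 2 and 0.34 without CTRL-ICB replicate 3, the library lowest in these transcripts.

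Transcripts of cytotoxic lymphocytes were higher, and Ifng, Ctsw and Ncr1 passed over the 12 libraries. The list of cytotoxic effectors had 11 of 16 members positive, 8 higher and 1 lower without overlap (15.2% and 14.3% of all tested genes), and a median of 0.59. In bulk tumours more cells of a type and more RNA per cell cannot be told apart. Ncr1, the activating receptor NKp46 of NK cells, stood at 1.00, 0.821 and 1.31 TPM in CTRL-ICB and at 8.75, 7.35 and 10.2 TPM in KO-ICB (limma adjusted p = 0.0207 over 12 libraries, 0.206 over 10 samples). Ifng, the cytokine interferon gamma, rose from 1.58, 2.52 and 1.37 TPM to 6.26, 7.52 and 8.21 TPM (limma adjusted p = 0.0269 over 12 libraries). Ctsw, the cysteine protease cathepsin W of NK cells and cytotoxic T cells, rose from 7.86, 6.35 and 6.36 TPM to 18.4, 16.7 and 20.3 TPM (limma adjusted p = 0.0207 over 12 libraries). In all 3 genes the groups were apart in every library.

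Of 12 tested NK cell genes all 12 were positive and 10 stood higher without overlap, where 15.2% of all tested genes did, with a median of 0.88. Klra7, a member of this list, passed the filter only through the KO-ICB libraries. The T cell list had 18 of 19 positive, 10 higher without overlap and a median of 0.62, and none of its members passed. Cd8a, the coreceptor of cytotoxic T cells, overlapped, at 5.05, 9.15 and 3.49 TPM in CTRL-ICB and 9.74, 10.7 and 7.501 TPM in KO-ICB. Granzymes differed among themselves. Gzmc stood at 30.1, 33.5 and 34.0 TPM in CTRL-ICB and at 211, 203 and 346 TPM in KO-ICB (limma adjusted p = 0.0969 over 12 libraries, 0.0173 in the ICB samples alone). Gzmb, the granzyme that starts apoptosis in target cells, stood at 9.43, 44.8 and 33.6 TPM in CTRL-ICB and at 103, 102 and 94.5 TPM in KO-ICB (limma adjusted p = 0.135 over 12 libraries). Gzmd, Gzme, Gzmf and Gzmg had negative differences, from -1.08 for Gzmf to -0.02 for Gzmd. The granzyme genes of this cluster are close copies, so reads may be split between them.

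Chemokines that attract lymphocytes had 13 of 15 members positive and 8 higher without overlap, where 15.2% of all tested genes were, with a median of 0.58. Xcl1, the ligand of XCR1 on dendritic cells, stood at 3.77, 3.98 and 4.97 TPM in CTRL-ICB and at 30.6, 24.02 and 36.2 TPM in KO-ICB (limma adjusted p = 0.118 over 12 libraries, 0.0250 in the ICB samples alone). Ccl5, which attracts T cells, stood at 49.9, 60.0 and 26.6 TPM in CTRL-ICB and at 151, 142 and 149 TPM in KO-ICB (limma adjusted p = 0.0527 over 12 libraries). Dendritic cell genes had 10 of 12 positive, 7 higher without overlap and 1 lower, with a median of 0.49. Of those higher, Xcr1, Ccr7 and Ccl22 are also on the chemokine list and Bst2 on the type I interferon list. Among the defining markers, Flt3 stood higher without overlap, at 0.137 to 0.573 TPM in CTRL-ICB and 0.8 to 1.15 TPM in KO-ICB. Zbtb46 overlapped, at 3.21 to 4.64 TPM in CTRL-ICB and 3.13 to 4.02 TPM in KO-ICB. The list of regulatory T cell and checkpoint genes had 12 of 15 positive, 8 higher and 1 lower without overlap, with a median of 0.41, or 0.63 without CTRL-ICB replicate 2. Of the 5 tested B and plasma cell genes none was free of overlap.

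Mast cell transcripts had the highest median of the leukocyte lists. Of 12 tested mast cell and basophil genes 10 were positive and 8 stood higher without overlap, where 15.2% of all tested genes did, with a median of 1.63. Fcer1a, the alpha chain of the high-affinity IgE receptor, rose from 1.931, 5.6 and 4.484 TPM to 19.8, 21.5 and 17.4 TPM (limma adjusted p = 0.0194 over 12 libraries). Cpa3, the carboxypeptidase of mast cell granules, rose from 5.09, 19.9 and 11.6 TPM to 66.6, 65.4 and 62.0 TPM (limma adjusted p = 0.0380 over 12 libraries). Tpsab1, a mast cell tryptase, stood at 14.6, 109 and 65.2 TPM in CTRL-ICB and at 308, 307 and 311 TPM in KO-ICB (limma adjusted p = 0.0682 over 12 libraries). The controls varied widely for these genes and CTRL-ICB replicate 1 was lowest in all 3. Mcpt8, a basophil protease, was 1 of the 2 members with a negative difference (-0.19).

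Neutrophil transcripts lay on the other side. Of 13 tested neutrophil genes 2 were positive, 7 had all KO-ICB libraries below all controls, where 14.3% of all genes did, and the median was -0.92. Without CTRL-ICB replicate 3 the median was -0.625. Ly6g, a defining neutrophil marker, was too low to be tested. Il1r2 was the member that fell over the 12 libraries. S100a8, a subunit of calprotectin, stood at 58.6, 192 and 319 TPM in CTRL-ICB and at 22.4, 25.2 and 25.9 TPM in KO-ICB (limma adjusted p = 0.0848 over 12 libraries). S100a9, its partner, stood at 101, 439 and 542 TPM in CTRL-ICB and at 68.3, 71.1 and 77.4 TPM in KO-ICB. Ltf, which encodes lactoferrin and is also made by secretory mammary cells, went the other way, at 0.431, 5.99 and 1.56 TPM in CTRL-ICB and 25.4, 31.2 and 23.5 TPM in KO-ICB. Macrophage and monocyte genes were mixed, with 9 of 20 positive, 2 higher and 4 lower without overlap and a median of -0.09, which was 0.24 without CTRL-ICB replicate 1, -0.40 without CTRL-ICB replicate 3, -0.01 without KO-ICB replicate 3 and -0.04 without the KO-ICB pair. Among inflammatory genes Ptgs2, the inducible cyclooxygenase, stood at 20.98, 22.8 and 40.5 TPM in CTRL-ICB and at 7.64, 7.82 and 4.35 TPM in KO-ICB (limma adjusted p = 0.0969 over 12 libraries). In the complement list 6 of 17 genes stood higher without overlap, where 15.2% of all genes did. The median was 0.21, and -0.06 without CTRL-ICB replicate 3. The list summed to 2987, 2557 and 1181 TPM in CTRL-ICB replicates 1 to 3 and to 2683 to 2954 TPM in KO-ICB. Cfb, factor B of the alternative pathway, rose from 65.0, 59.5 and 44.7 TPM to 122, 112 and 146 TPM (limma adjusted p = 0.0207 over 12 libraries).

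Stromal and vascular transcripts had negative medians, and none of the members of the endothelial, fibroblast and epithelial-mesenchymal transition lists passed over the 12 libraries. Of 15 endothelial genes 1 was positive and 8 stood lower without overlap, where 14.3% of all tested genes did, with a median of -0.97. Cdh5, the cadherin of endothelial junctions, stood at 39.5, 34.2 and 17.3 TPM in CTRL-ICB and at 13.1, 11.3 and 9.82 TPM in KO-ICB (limma adjusted p = 0.246 over 12 libraries). Of 21 fibroblast and matrix genes 1 was positive and 7 stood lower without overlap, with a median of -0.61 that shrank to -0.02 without CTRL-ICB replicate 1, the library richest in these transcripts. Dcn, the proteoglycan decorin, stood at 73.0, 22.4 and 22.8 TPM in CTRL-ICB and at 12, 13.3 and 11.7 TPM in KO-ICB. All 13 genes of the epithelial-mesenchymal transition list were negative and 6 stood lower without overlap, with a median of -0.54, or -0.32 without KO-ICB replicate 3. Vim, the intermediate filament vimentin, stood at 1870, 1199 and 2068 TPM in CTRL-ICB and at 576, 608 and 310 TPM in KO-ICB (limma adjusted p = 0.17 over 12 libraries).

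Epithelial genes of 4T1 cells had 15 of 19 members positive, 9 higher and 1 lower without overlap (15.2% and 14.3% of all tested genes), and a median of 0.40. Cldn7, a tight junction claudin, stood at 54.6, 53.7 and 66.2 TPM in CTRL-ICB and at 352, 338 and 355 TPM in KO-ICB (limma adjusted p = 0.0172 in the ICB samples alone, 0.501 over 12 libraries). Krt19, a keratin of simple epithelia, stood at 70.1, 75.5 and 68.3 TPM in CTRL-ICB and at 195, 209 and 228 TPM in KO-ICB (limma adjusted p = 0.0250 in the ICB samples alone). Both were near 2 TPM in KO-IgG replicate 1, which widens the shared spread. Hypoxia and glycolysis genes had 3 of 20 positive and 9 lower without overlap, with a median of -0.57. Car9, a carbonic anhydrase induced by HIF1, stood at 113, 136 and 143 TPM in CTRL-ICB and at 55.1, 47.4 and 42.2 TPM in KO-ICB (limma adjusted p = 0.0405 in the ICB samples alone, 0.284 over 12 libraries). Erythroid genes had 0 of 5 positive and 4 lower without overlap, all globins, with a median of -1.24.

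Cell cycle genes (9 of 24 positive, median -0.07), ribosomal protein genes (9 of 21, -0.03), heat shock genes (5 of 12, -0.06), immediate early genes (8 of 15, 0.02) and histone genes (4 of 9, -0.03) lay close to the median of all genes. With 1 ICB sample left out, these medians ran from -0.21 to 0.23. The executors of cell death had 10 of 18 positive, with 5 higher and 2 lower without overlap, where 15.2% and 14.3% of all tested genes were. Their median was 0.12, and -0.015 without the KO-ICB pair. Integrated stress response genes had 3 of 15 positive and 4 lower without overlap, where 14.3% of all tested genes were lower, with a median of -0.18. Chemokines that recruit myeloid cells (9 of 17 positive, median 0.05) and inflammatory cytokine and prostaglandin genes (9 of 19, -0.09) were mixed, as were matrix metalloproteinases and their inhibitors (3 of 14, -0.21) and pericyte and smooth muscle genes (3 of 11, -0.50). With 1 ICB sample left out, the medians of the myeloid chemokine and inflammatory lists took both signs, between -0.23 and 0.30, and that of the metalloproteinases ran from -0.44 to -0.05. The pericyte median was 0.22 without CTRL-ICB replicate 1 and -0.92 without CTRL-ICB replicate 3. The median of the skin keratinocyte list was -0.93, -0.24 without CTRL-ICB replicate 3 and -1.48 without CTRL-ICB replicate 2. Mitochondrially encoded transcripts took 3.63% to 4.03% of the TPM in CTRL-ICB and 5.652%, 5.495% and 3.546% in KO-ICB replicates 1 to 3. The part of such composition, and of the skin transcripts of CTRL-ICB replicate 3, in the differences above was not tested beyond the values without that library.

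**Figure D4:**
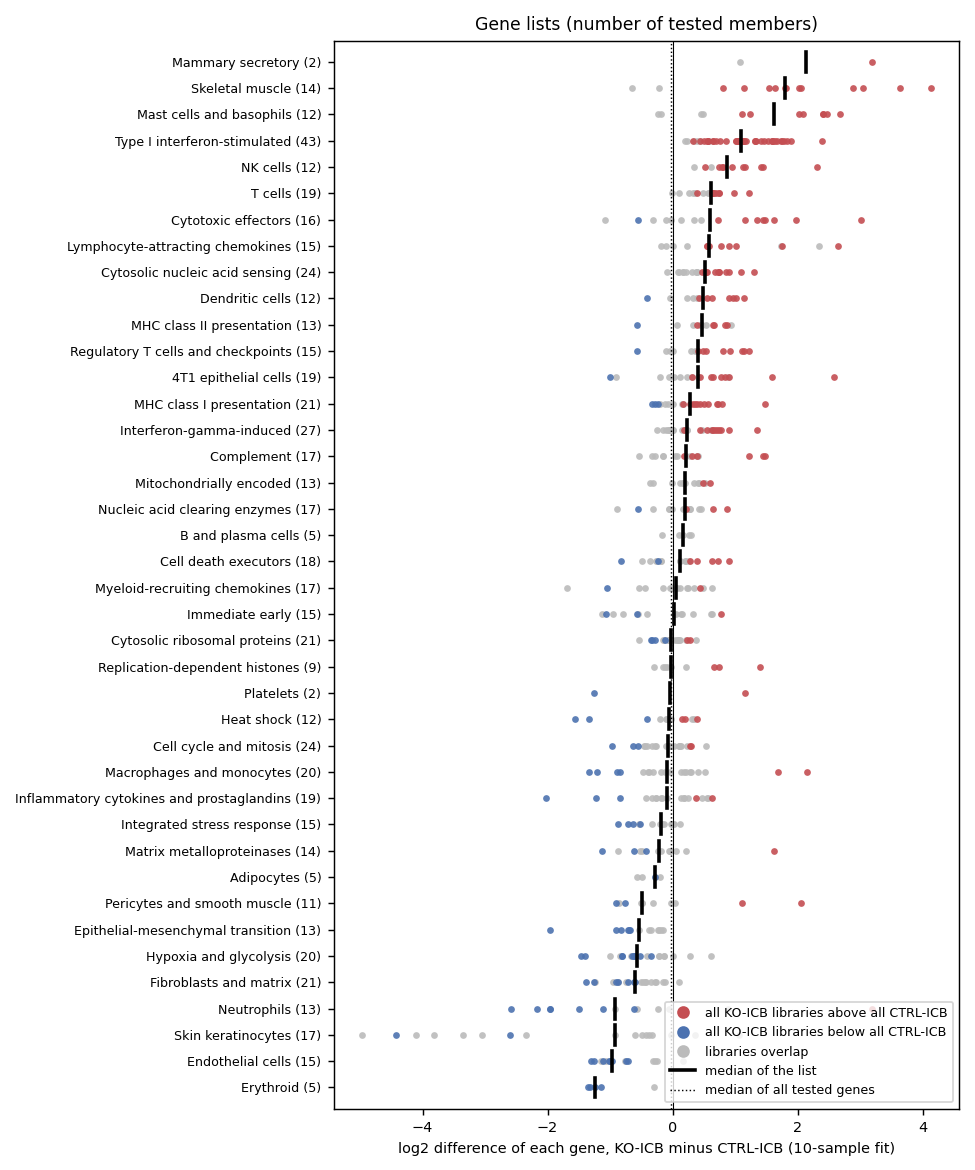
Each point is the log2 difference of 1 gene, KO-ICB minus CTRL-ICB over 10 samples, on the x axis, and each line on the y axis is a gene list with its number of tested members. Red and blue points mark genes whose KO-ICB libraries all lie above or below all CTRL-ICB libraries. Thick black bars give list medians, from 2.13 for mammary secretory genes to -1.24 for erythroid genes. The mammary secretory list has 2 tested members, Csn3 and Ltf, and Ltf is also on the neutrophil list.

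The differences were unevenly spread over the chromosomes. On chromosome 3, 82.6% of 661 tested genes were negative and 271 (41.0%) had all KO-ICB libraries below all controls, where 14.3% of all tested genes did, with a median of -0.41. The lower level ran along the chromosome: of 24 windows of 5 Mb with at least 10 tested genes, 23 had a negative median. Each library's median over chromosome 3 genes with a mean of 5 TPM or more, set against CTRL-ICB and the library's own median, was 0.01, 0.08 and -0.06 in CTRL-ICB and -0.38, -0.38 and -0.41 in KO-ICB. The KO-ICB libraries lay close together and apart from all controls. Under IgG the same values were -0.02, 0.12 and -0.11 in CTRL-IgG and -0.25, -0.28 and -0.27 in KO-IgG, again without overlap.

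Chromosome 4 had a median of -0.21 and all 21 windows negative, while under IgG its median was 0.00. On it 235 of 841 genes (27.9%) were lower without overlap, where 14.3% of all tested genes were. Chromosome 7 had a median of -0.15, with 22.1% of its genes lower without overlap, against the same 14.3%. Chromosome 8 stood higher, with a median of 0.18 and 21 of 23 windows positive. On it 228 of 731 genes (31.2%) were higher without overlap, where 15.2% of all tested genes were. The chromosome 8 level was 0.20, 0.20 and 0.24 in KO-ICB, 0.23 and 0.24 in KO-IgG replicates 2 and 3 and -0.22 in KO-IgG replicate 1. Without CTRL-ICB replicate 3 the medians of chromosomes 3, 4, 7 and 8 were -0.37, -0.20, -0.11 and 0.19. Gstm5, Ptgfrn, S100a8 and S100a9 lie on chromosome 3, and Tle1 lies on chromosome 4, and the part of the chromosome's level in their differences was not tested. Cpa3 lies on chromosome 3 as well and rose.

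**Figure D5:**
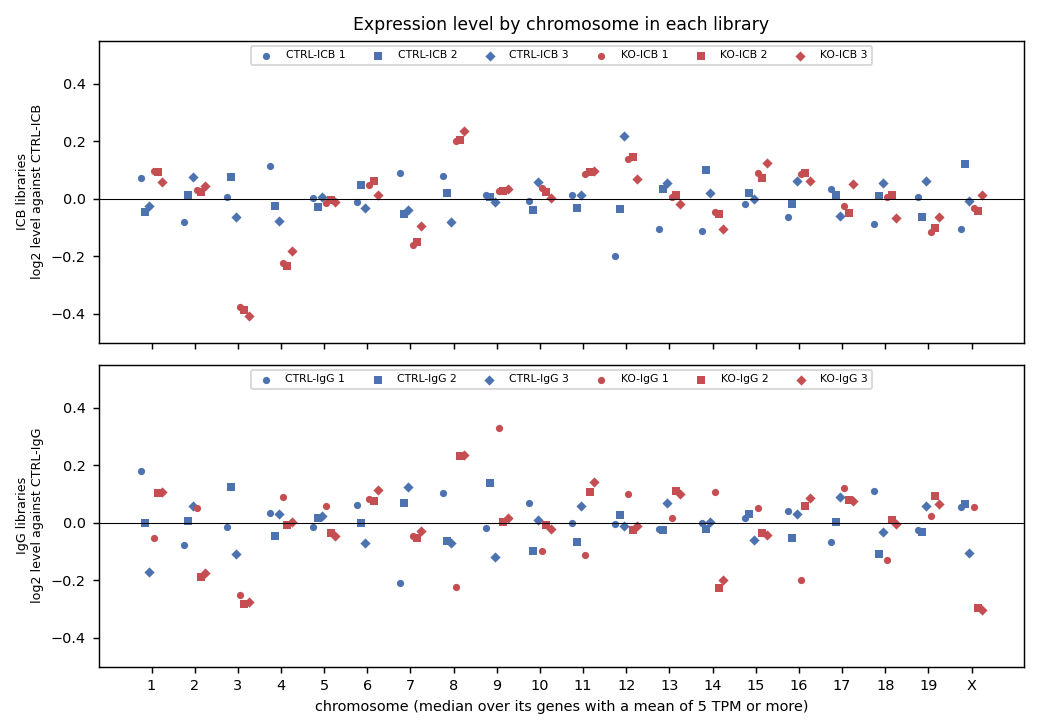
Each point is the median over the genes of 1 chromosome, with a mean of 5 TPM or more, of log2(TPM + 1) in 1 library against the mean of the CTRL libraries under the same antibody, less the library's own median, with CTRL in blue and KO in red. Chromosome 3 is the lowest in all KO-ICB libraries, between -0.41 and -0.38, and chromosome 8 the highest, between 0.20 and 0.24.

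Genes close to Trex1 on chromosome 9 also stood higher. Of the 88 other tested genes within 2 Mb of Trex1, a span chosen after the values were seen, 27 (30.7%) were higher without overlap and 1 was lower, where 15.2% and 14.3% of all genes were, and the median was 0.19. Beyond 10 Mb of Trex1 on the same chromosome 73 of 583 genes were higher and 76 lower without overlap, with a median of -0.03. All 3 genes of chromosome 9 among the 40 called, Sema3b, Cish and Uba7, lie within 2 Mb of Trex1. Cish, a feedback inhibitor of cytokine receptors that signal through STAT5, stood at 10.4, 21.03 and 17.3 TPM in CTRL-ICB and at 60.5, 48.1 and 44.6 TPM in KO-ICB (limma adjusted p = 0.0377 over 12 libraries).

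For most genes called under ICB the difference had the same sign in the comparison under IgG. That comparison holds no ICB library, but its libraries entered the shared estimate of spread by which the 40 genes were called. A small spread under IgG makes both a call and a lack of overlap under IgG more likely. The shares below are therefore not an independent check. Of the 40 genes 32 (80%) had the same sign in KO-IgG against CTRL-IgG, where 69.8% of all tested genes did, and 26 (65.0%) had no overlap under IgG in the direction of their ICB difference, where 9.44% of all genes did. Of the 28 genes called higher 20 (71.4%) had the same sign under IgG, a share near that of all genes, and 15 (53.6%) had no overlap there. All 12 genes called lower had the same sign, and 11 (91.7%) had no overlap. Tle1 stood at 22.2, 19.7 and 22.6 TPM in CTRL-IgG and at 10.4, 10.2 and 9.91 TPM in KO-IgG, nearly the levels of the ICB groups. Ifng stood at 1.73, 2.77 and 1.47 TPM in CTRL-IgG and at 7.58, 6.99 and 7.56 TPM in KO-IgG. Across all genes the Pearson correlation of the differences was 0.463, a description over genes that are not independent and that share chromosomes and composition.

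The test of whether the difference between KO and CTRL changes with the antibodies, the interaction, called no gene over 10 samples (0%), with 196 genes at an unadjusted p under 0.05 and a smallest limma adjusted p of 0.301. Over the 12 libraries it called 1 gene (0.0072%), Tnnc2, with an interaction of 4.14 on the log2 scale (limma adjusted p = 0.0117). Tnnc2 stood at 1.36, 0.122 and 0 TPM in CTRL-IgG and was listed at 0 in all KO-IgG libraries. None of the 9 muscle genes called under ICB had all KO-IgG libraries above all CTRL-IgG libraries. Outside KO-ICB, however, Ckm and Pvalb reached 1 TPM in no library, and Tnnc2, Tcap, Csrp3 and Atp2a1 only in CTRL-IgG replicate 1. For these genes low levels under IgG are in part set by the filter, and so is the interaction call of Tnnc2. Ckm stood at 0.935, 0.264 and 0.387 TPM in CTRL-IgG and at 0.574, 0.267 and 0.533 TPM in KO-IgG. Endothelial genes had a median of 0.02 under IgG against -0.97 under ICB, and 4T1 epithelial genes -1.17 against 0.40, and no member of either list passed the interaction test. In both lists KO-IgG replicate 1 stood apart from the other KO-IgG libraries. The mean log2(TPM + 1) of the endothelial genes was 4.56 in KO-IgG replicate 1 and 3.48 and 3.44 in replicates 2 and 3, which lay below the CTRL-IgG range of 3.91 to 4.21, as the KO-ICB libraries lay below CTRL-ICB. That of the epithelial genes was 4.25 in KO-IgG replicate 1 and 7.52 and 7.51 in replicates 2 and 3, within the CTRL-IgG range of 6.19 to 7.67.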

How the data were processed

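Polyadenylated RNA of 12 tumours was sequenced by Novogene, 3 tumours per group per the labels' protocols. The authors deposited 1 table of TPM values with 1 column per library, made with kallisto on the build GRCm38, as the submitters' processing notes say. The kallisto version, the transcript set and any use of strand are not stated there. Columns were matched to samples by their titles. Of the symbols, 22898 (96.8%) matched 1 gene of GENCODE M21, which supplied coordinates, and promoter windows came from RefSeq.

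Only genes that reached 1 TPM in 3 or more of the 12 libraries were kept. Their log2(TPM + 1) values were fitted with 4 group means in limma (version 3.58.1 under R 4.3.3), using trended and robust shrinkage of variances. The Benjamini-Hochberg method was applied to the p-values of all 13886 genes. P-values measure the spread between the 10 samples, or between the 12 libraries that the labels call different tumours.

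The comparison, its gene lists and the rule for named genes were chosen with earlier results of these data known. The rule took Trex1, the genes called whose libraries did not overlap between the ICB groups, and up to 4 members of each list. Where fewer than 5 were called in a direction, it took the 5 with the smallest p among genes without overlap. Alternatives were the 12 libraries, the ICB samples alone, other scalings, filters, a pseudocount of 0.1, array weights, the replicate block and leaving out each replicate. The grouping by chromosome was added after seeing the data. A few list members with values were chosen for their known role.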

Additional observations from a re-analysis of the deposited data

Results flagged for a closer look

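The difference between KO and CTRL itself differed between the antibody treatments for Tnnc2, where the interaction was 4.108 on the log2 scale (limma adjusted p = 0.301 over 10 samples and 0.0117 over 12 libraries). Without the KO-ICB libraries Tnnc2 would not have passed the filter, so its interaction is in part set by that filter. Des stood out because all KO-ICB libraries lay above all CTRL-ICB libraries while all KO-IgG libraries lay below all CTRL-IgG libraries, with an interaction of 2.665 (limma adjusted p = 1.00 over 10 samples and 0.229 over 12 libraries). The list of replication-dependent histones showed the same opposite separation in its mean level. This was 2.75 to 2.91 in KO-ICB against 2.51 to 2.68 in CTRL-ICB and 2.13 to 2.36 in KO-IgG against 2.62 to 2.81 in CTRL-IgG. Under ICB, however, only 4 of the 9 tested histone genes were positive and their median difference was -0.034. With 1 ICB sample left out, that median ran from -0.113 to 0.229, so a rise of the whole list is not shown. The median interaction of the list was 0.514, and that difference was not tested.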

How the results depend on the processing

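The count of genes called depends on which samples set the spread. Over 10 samples it was 1, and it became 40 over the 12 libraries, 74 with the ICB samples alone, 1263 with array weights, 4 without trend and robust shrinkage, 5 with no filter on low values, and 0 with a filter of 5 TPM or a pseudocount of 0.1. Leaving out 1 sample gave 0 to 15 calls, 15 without KO-IgG replicate 1 or without the averaged KO-IgG pair, and 0 without CTRL-IgG replicate 2, CTRL-ICB replicate 1 or 2, KO-ICB replicate 3 or the averaged KO-ICB pair. Without CTRL-ICB replicate 3 there was 1 call, and it was not Tnnc2. The count over the 12 libraries was 78 after quantile normalization, 65 after median centring, 631 with the 6 ICB libraries alone (all 40 included) and 527 without KO-IgG replicate 1, and 4 to 30 without 1 ICB library. It was 4 without any 1 of the KO-ICB libraries, 16 without CTRL-ICB replicate 1 and 17 without CTRL-ICB replicate 3. With the replicate block 8 genes passed over the 12 libraries, and same-numbered libraries did not deviate together, with correlations of -0.17, 0.06 and -0.19. With the ICB samples alone the count was 362 without CTRL-ICB replicate 3. The interaction called 0 genes over 10 samples, 1 over the 12 libraries, 9 with no filter, and 0 to 7 with 1 sample left out, 7 without the averaged KO-IgG pair. The causes of these shifts were not tested.

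The difference of Trex1 stayed positive, at 0.51 to 0.78, with a limma adjusted p of 0.0116 with array weights and above the threshold under the other alternatives. Of 179 named genes 175 kept their sign under every alternative, as did the medians of 26 of 40 lists. Apart from Trex1 the named genes were chosen by p-value in these same data, so their share is not an independent check. Where 1 sample of a group remained, it was assumed to vary like the other groups. Depth is unknown from TPM, so what read numbers limit cannot be given.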
